A study of Homo sapiens with 6 samples.

Results

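The comparison described here set the arrays of THP-1 cells given the compound LC53 before lipopolysaccharide (LPS) against the arrays of THP-1 cells given LPS alone, and asked which arms of the LPS transcript program were lower, not detectably different, or higher with the compound. Its members were chosen by label and were 4 of the 6 arrays of the series, 2 from each group. LC53 plus LPS cells received 5 µM LC53 15 min before LPS at 50 ng/ml and were kept for 8 h. LPS cells received 50 ng/ml LPS alone for the same 8 h. The remaining 2 arrays were resting cells with neither agent, which served to show where the level stood before LPS. THP-1 is an established human monocytic leukaemia line that grows in suspension, and all groups were kept in medium with 0.5% serum. No group with LC53 alone was listed, so what the compound does to unstimulated cells cannot be told apart from what it does to the LPS response. Theissenolactone C, TAK-1/IKK signalling and septic injury are named in the title of the series. Separate cultures for the 2 arrays of a group are not stated, so the p-values measure only the spread between these arrays, which may be technical. RNA was taken from whole cultures, and fewer responding cells cannot be told apart from less RNA per cell.

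As background, LPS is sensed at the cell surface by TLR4 together with LY96 and CD14. The MYD88 branch passes through IRAK kinases to TAK1 (encoded by MAP3K7) and its TAB partners, which activate the IKK complex and free NF-kB to enter the nucleus, while the MAP kinase branch activates AP-1. The TICAM1 branch passes through TBK1 to IRF3 and the interferon beta gene, and secreted interferon then acts through STAT2 and IRF9, among others, on genes that carry an interferon-stimulated response element (ISRE). A separate arm, the NRF2 program encoded through NFE2L2, is held down by KEAP1 and is released by electrophiles and oxidants; it drives haem breakdown, glutathione and thioredoxin genes.

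Short promoter stretches show which sequence features the main arms carry. They are RefSeq sequence of build GRCh38.p14, 5′ to 3′ along the gene's own strand, and the capitals mark matches within the 250 bases before the annotated start. The first 4 belong to genes that were lower with LC53, and their capitals include the ISRE core, TTTC followed after any 2 bases by a second TTTC, or its reverse complement (CXCL10 has 1 ISRE core followed by 2 matches to the NF-kB consensus). The last 3 belong to neutrophil-attracting chemokines whose calls were not past the threshold, and their capitals mark the NF-kB consensus, read on both strands with overlapping matches.
IFIT1, chr10:89392483-89392563, plus strand: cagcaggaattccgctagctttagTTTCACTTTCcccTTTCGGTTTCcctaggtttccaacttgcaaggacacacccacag
IFIT3, chr10:89327832-89327907, plus strand: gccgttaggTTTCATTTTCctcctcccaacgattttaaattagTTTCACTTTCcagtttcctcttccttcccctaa
ISG15, chr1:1013367-1013437, plus strand: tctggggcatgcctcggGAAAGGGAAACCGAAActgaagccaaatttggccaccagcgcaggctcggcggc
CXCL10, chr4:76023597-76023727, minus strand: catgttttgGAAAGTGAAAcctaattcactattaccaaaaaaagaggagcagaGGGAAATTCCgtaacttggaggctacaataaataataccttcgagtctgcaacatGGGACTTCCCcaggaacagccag
CXCL1, chr4:73869283-73869353, plus strand: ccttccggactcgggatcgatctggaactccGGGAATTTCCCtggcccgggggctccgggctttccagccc
CXCL2, chr4:74099235-74099305, minus strand: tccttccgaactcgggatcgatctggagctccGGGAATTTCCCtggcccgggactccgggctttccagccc
CXCL3, chr4:74038729-74038799, minus strand: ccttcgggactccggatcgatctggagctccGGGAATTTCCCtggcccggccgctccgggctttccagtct
All 3 neutrophil-attracting chemokines carry the same 11 capital letters, whereas IFIT1, IFIT3 and ISG15 each hold 2 ISRE cores, which overlap in ISG15.

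Each array had 31741 probes with a linear intensity, and the median intensity was 110.5 and 112.7 with LC53 plus LPS, 84.4 and 124.0 with LPS, and 99.2 and 110.9 at rest. Replicates correlated across probes at r = 0.988 for LC53 plus LPS, 0.990 for LPS and 0.993 for resting cells, and arrays of different groups at 0.970 to 0.981; probes are not independent replicates. Between 38 and 95 probes per array were saturated. Values of a gene are given in intensity units, replicate 1 before replicate 2, from its brightest probe. All differences are LC53 plus LPS minus LPS in log2 of intensity, with values under 1 set to 1 and the SE of the limma fit over all 6 arrays, and adjusted p-values are limma's after Benjamini-Hochberg adjustment over 31741 probes. The median difference over all 18255 genes was 0.16, so members of an arm are read against a slightly positive centre. Among 10 monocyte markers LYZ, TYROBP and FCER1G were high in every group (group means of 8469 to 24578 units), and only CSF1R was lower with LC53. Of the markers of other cell types, 3 of 6 fibroblast genes were lower with LC53 and had been raised by LPS, while no T cell, B cell, NK cell, epithelial, endothelial or erythroid marker passed the threshold. DCN had 29.0 and 24.5 with LC53 plus LPS, 112 and 159.6 with LPS and 11.9 and 10.1 at rest. LUM had 77.9 and 99.3 with LC53 plus LPS, 311 and 312 with LPS and 69.4 and 80.7 at rest. Both encode small matrix proteoglycans. The summed level of the 6 fibroblast genes was 569.8 and 599 with LC53 plus LPS, 827 and 1055 with LPS, and 492 and 500.2 at rest, and their part in the results was not tested. Epithelial markers summed to 245 and 249 with LC53 plus LPS, 101 and 90.4 with LPS, and 79.3 and 110 at rest. Endothelial markers summed to 3330 and 3240 with LC53 plus LPS, 5783 and 6145 with LPS, and 5555 and 6525 at rest. Neither pair of groups overlapped, and the part of these markers in the results was not tested either.

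Most genes called with LC53 before LPS were lower, although over all genes 11723 differences were positive and 6511 negative. At an adjusted p below 0.05, 412 of 18255 genes were lower and 161 higher than with LPS alone, which is 2.26% and 0.882% of the genes measured (3.14% together). The lower group also held the larger differences, with 105 genes below and 11 genes above a fold of 4 after adding 50 units to each value. Over probes the count was 834 of 31741 (2.63%), with 616 lower (1.94%) and 218 higher (0.687%), and 5849 had an unadjusted p below 0.05. All 834 had arrays that did not overlap between the groups. With 2 arrays a group a call nearly requires this, and the share over all probes was not counted, so it adds no support. The share of higher calls depended on the scaling: it was 26.1% as deposited, 27.6% of 2416 probes after median centring, 33.4% of 3585 after cyclic loess, 43.9% of 3755 probes after quantile normalization, 45.8% of 2214 with an offset of 50, and 41.8% of 1856 among probes with a mean of at least 50. One array also mattered: without LPS replicate 2, the brighter LPS array, 1695 of 2318 called probes were higher (73.1%), and without LC53 plus LPS replicate 2 only 91 probes were called, 80 of them lower. With the LC53 plus LPS and LPS arrays fitted on their own, 264 were lower and 41 higher. A call is said to end where its adjusted p passed 0.05 with a named array left out, and "either array" means each of the pair in turn. Leaving out either resting array gave the same fit as the LC53 plus LPS and LPS arrays on their own. A lone resting array adds nothing to the estimate of the spread. Calls that ended this way therefore say nothing about the values of a single resting array. Brackets after the count of called members of a list give the range of that count over the 14 alternative settings. Counts over the gene lists are therefore read beside the values of the single arrays. They are also read beside the shares over all genes, 2.26% lower and 0.882% higher.

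**Figure D1:**
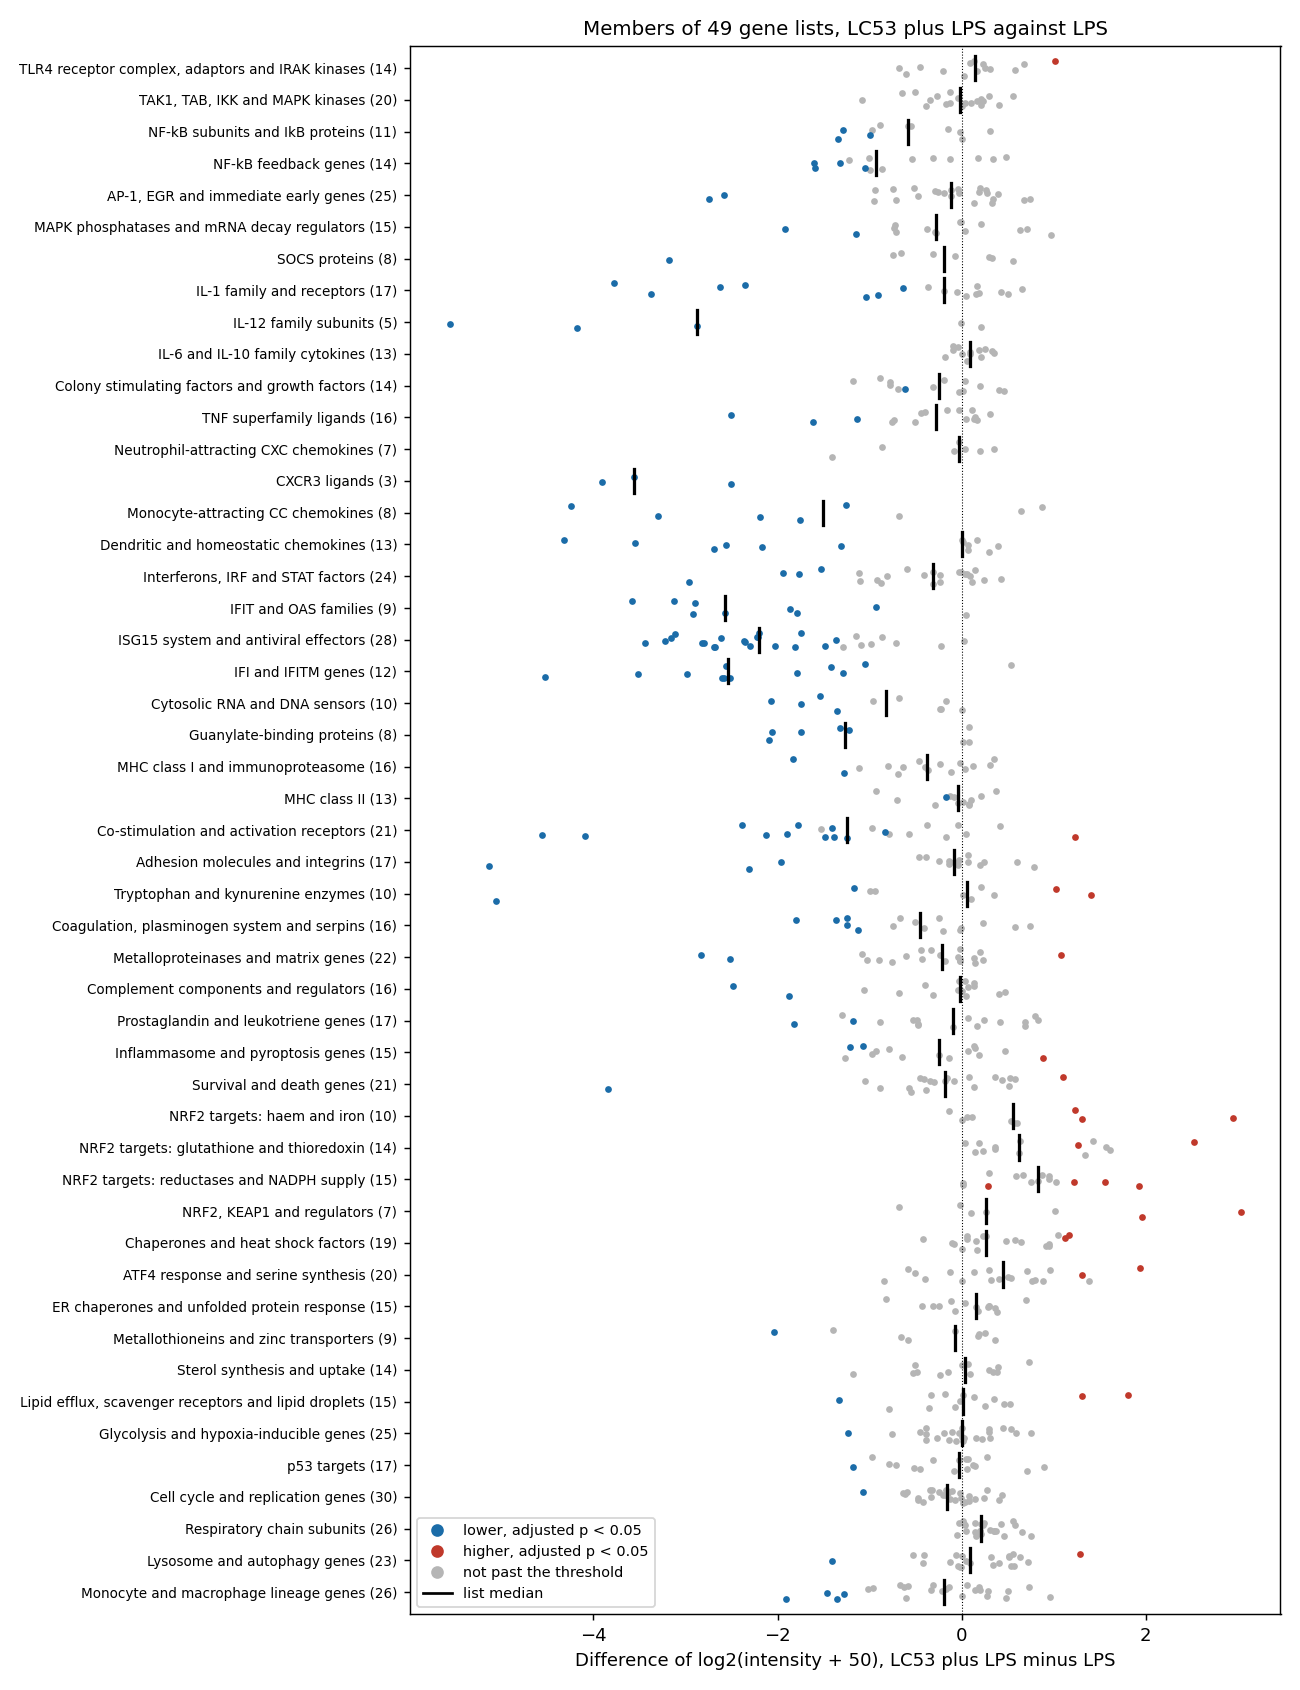
Difference between LC53 plus LPS and LPS for every measured member of 49 gene lists, on the log2(intensity + 50) scale (x axis), with list sizes in brackets. Blue points passed the test as lower, red points as higher, grey points did not pass, and the black bar is the list median. Interferon lists, CXCR3 ligands and IL-12 family subunits lie to the left, the NRF2 lists to the right, and kinases and sterol genes around 0. The respiratory chain median (0.21) lies slightly to the right, near that of the NRF2 regulators (0.26), beside 0.06 for all genes. The medians of the chaperone (0.27) and ATF4 (0.45) lists lie to the right as well.

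Among the lists, the ISG15 system and antiviral effectors held the most lower calls, 20 of 28 (71.4%). The share lower was 91.7% for IFI and IFITM genes, 88.9% for the IFIT and OAS families and 62.5% for guanylate-binding proteins. It was 100% for the CXCR3 ligands and 52.4% for co-stimulation receptors, beside 2.26% of all genes. In the IFIT and OAS families, which bind or sense viral RNA, 8 of 9 measured members were lower (3 to 8) and 0 higher, with a list median of -2.70. LPS itself had raised 8 of the list, and the count of lower members was 3 to 8 with 1 array left out, lowest without LC53 plus LPS replicate 2. IFIT1, which holds back translation of viral RNA, had 1104 and 1129 with LC53 plus LPS, 8004 and 9628 with LPS and 285 and 293 at rest (log2 difference -2.97 ± 0.19, adjusted p = 0.00344). The LC53 plus LPS arrays lay well below the LPS arrays and still above the resting ones. OAS3, a synthase of the RNase L activator, had 622 and 489.9 with LC53 plus LPS, 6476 and 7954 with LPS and 285 and 262 at rest (log2 difference -3.70 ± 0.22, adjusted p = 0.00293), although the other probe of OAS3 had the opposite sign. OAS2 had 829 and 778 with LC53 plus LPS, 6877 and 7968 with LPS and 342 and 469 at rest (log2 difference -3.20 ± 0.23, adjusted p = 0.00452). IFIT3 and ISG15, whose promoters are shown above, were lower too. IFIT3 had 464 and 414 with LC53 plus LPS, 2326 and 3485 with LPS and 159 and 171 at rest (log2 difference -2.70 ± 0.25, adjusted p = 0.00884). ISG15, a ubiquitin-like modifier, had 1159 and 835 with LC53 plus LPS, 4231 and 5320.3 with LPS and 293 and 322 at rest (log2 difference -2.27 ± 0.24, adjusted p = 0.0137). The family member IFIT1B had 5.44 and 6.69 with LC53 plus LPS, against 1.04 and 7.69 with LPS and was not called. The calls of IFIT3 and ISG15 ended without LC53 plus LPS replicate 1 (adjusted p 0.057 to 0.0617). The calls of OAS2, IFIT3 and ISG15 ended without LC53 plus LPS replicate 2 (adjusted p 0.0511 to 0.1). Calls of IFIT1 and OAS3 stood with any 1 array left out.

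Among the ISG15 system and antiviral effectors, 20 of 28 measured members were lower (3 to 26) and 0 higher, with a list median of -2.27. LPS itself had raised 22 of the list, and the count of lower members was 3 to 20 with 1 array left out, lowest without LC53 plus LPS replicate 2. MX2, a dynamin-like block to virus entry into the nucleus, had 869 and 851 with LC53 plus LPS, 9418 and 10302 with LPS and 827 and 980.3 at rest (log2 difference -3.52 ± 0.19, adjusted p = 0.00218), and the LC53 plus LPS arrays sat at the resting level. Its paralogue MX1 had 983 and 714 with LC53 plus LPS, 6461 and 9663 with LPS and 293 and 349 at rest (log2 difference -3.24 ± 0.29, adjusted p = 0.00751). TRIM22, an antiviral ubiquitin ligase, had 145 and 98.2 with LC53 plus LPS, 1259 and 1879 with LPS and 86.3 and 103 at rest (log2 difference -3.69 ± 0.30, adjusted p = 0.0064). TRIM21, the cytosolic antibody receptor, and BST2, the tether of budding virus, were the brightest members that did not pass. TRIM21 had 1126 and 800.1 with LC53 plus LPS, against 1841 and 3085 with LPS (log2 difference -1.33, 95% confidence interval -2.11 to -0.55, adjusted p = 0.105). BST2 had 9235 and 8959 with LC53 plus LPS, against 13035 and 17198 with LPS (log2 difference -0.72, 95% confidence interval -1.25 to -0.18, adjusted p = 0.172). Of the IFI and IFITM genes, 11 of 12 measured members were lower (2 to 11) and 0 higher, with a list median of -2.64. IFI44 had 297 and 194 with LC53 plus LPS, 2566 and 4199 with LPS and 77.3 and 82.7 at rest (log2 difference -3.77 ± 0.33, adjusted p = 0.00721). IFITM1, a membrane protein that blocks virus fusion, had 1424 and 1313 with LC53 plus LPS, 9589 and 12946 with LPS and 1182 and 1269.7 at rest (log2 difference -3.03 ± 0.22, adjusted p = 0.00477). Its neighbour IFITM2 was not called, with 5369.6 and 4361 with LC53 plus LPS, against 3227 and 3404 with LPS (log2 difference 0.55, 95% confidence interval 0.07 to 1.02, adjusted p = 0.223). IFI27 had 39.0 and 33.5 with LC53 plus LPS, 453 and 491 with LPS and 21.8 and 23.2 at rest (log2 difference -3.71 ± 0.19, adjusted p = 0.00218). IFI6, a mitochondrial survival protein, had 619 and 663 with LC53 plus LPS, 3610.4 and 4450.1 with LPS and 418 and 473 at rest (log2 difference -2.65 ± 0.20, adjusted p = 0.00546). The call of IFI6 ended without LC53 plus LPS replicate 1 (adjusted p = 0.0526). Except for MX2 and IFI27, these calls ended without LC53 plus LPS replicate 2 (adjusted p 0.0517 to 0.0633). Calls of MX2 and IFI27 stood with any 1 array left out.

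Guanylate-binding proteins, which coat bacteria in the cytosol, and RNA and DNA sensors were lowered in part. For the guanylate-binding proteins 5 of 8 measured members were lower (0 to 5) and 0 higher, with a list median of -2.02, and for the sensors 4 of 10 measured members were lower (0 to 6) and 0 higher, with a list median of -0.92. GBP4 had 184 and 185 with LC53 plus LPS, 823 and 1042 with LPS and 204 and 221 at rest (log2 difference -2.33 ± 0.20, adjusted p = 0.00721). GBP5, which promotes inflammasome assembly, had 413 and 301 with LC53 plus LPS, 1302 and 2144 with LPS and 106 and 113 at rest (log2 difference -2.24 ± 0.30, adjusted p = 0.0255). GBP1 was dim and also called, with 13.6 and 11.2 with LC53 plus LPS, 81.2 and 111 with LPS and 9.92 and 11.1 at rest. DHX58, an RNA helicase that tunes the sensor RIGI, had 264 and 237 with LC53 plus LPS, 1081 and 1359.6 with LPS and 212 and 218 at rest (log2 difference -2.28 ± 0.20, adjusted p = 0.00751). RIGI itself had 116 and 106 with LC53 plus LPS, 361 and 482 with LPS and 87.3 and 89.8 at rest (log2 difference -1.91 ± 0.21, adjusted p = 0.0154). AIM2, the inflammasome sensor of DNA, had 57.1 and 114 with LC53 plus LPS, 395 and 395 with LPS and 68.4 and 67.6 at rest (log2 difference -2.29 ± 0.34, adjusted p = 0.0326). CGAS and STING1, the sensor and adaptor of the cyclic dinucleotide route, were not called. CGAS had 2347 and 1776 with LC53 plus LPS, against 2159 and 2644 with LPS (log2 difference -0.23, 95% confidence interval -0.83 to 0.37, adjusted p = 0.641). STING1 had 1517 and 1532 with LC53 plus LPS, 1806 and 1801 with LPS and 5729 and 6396 at rest (log2 difference -0.24, 95% confidence interval -0.68 to 0.19, adjusted p = 0.495), which LPS had lowered. Except for GBP1, these calls ended without LC53 plus LPS replicate 1 (adjusted p 0.0617 to 0.0974). Except for AIM2, these calls ended without LC53 plus LPS replicate 2 (adjusted p 0.0573 to 0.16). The call of AIM2 ended without either LPS array (adjusted p 0.0545 to 0.104). The calls of GBP5, RIGI and AIM2 ended without either resting array (adjusted p 0.056 to 0.0796).

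Transcription factors of the interferon route were lowered in part. In the list of interferons, IRF and STAT factors 4 of 24 measured members were lower (1 to 9) and 0 higher, with a list median of -0.33. STAT4, which carries IL-12 signals, had 506 and 685 with LC53 plus LPS, 5098 and 4773 with LPS and 224 and 278 at rest (log2 difference -3.07 ± 0.23, adjusted p = 0.00546). STAT2 had 1095 and 842 with LC53 plus LPS, 3681 and 4003 with LPS and 803 and 939 at rest (log2 difference -1.999 ± 0.22, adjusted p = 0.0141). STAT5A had 243 and 256 with LC53 plus LPS, 778 and 845 with LPS and 196 and 239 at rest (log2 difference -1.70 ± 0.19, adjusted p = 0.0165). IRF7, the amplifier of interferon production, had 555 and 398 with LC53 plus LPS, 1769 and 1669 with LPS and 267 and 289 at rest (log2 difference -1.87 ± 0.22, adjusted p = 0.0192). IRF9, the DNA-binding partner of STAT2, had 3883 and 3269 with LC53 plus LPS, 6831 and 8763 with LPS and 2271 and 2150.2 at rest and did not pass (log2 difference -1.12, 95% confidence interval -1.65 to -0.59, adjusted p = 0.063). IRF1 had 1762 and 2206 with LC53 plus LPS, 3554 and 3764 with LPS and 1207 and 1434 at rest, also short of the threshold (log2 difference -0.89, 95% confidence interval -1.41 to -0.37, adjusted p = 0.103). IFNB1, the interferon beta gene, was dim in all groups at this 8 h time point, with 43.5 and 36.8 with LC53 plus LPS, 27.1 and 50.0 with LPS and 27.8 and 32.3 at rest. The calls of STAT2, STAT5A and IRF7 ended without either LC53 plus LPS array (adjusted p 0.0659 to 0.128). The calls of STAT2 and IRF7 ended without LPS replicate 1 (adjusted p 0.0503 to 0.0667). The calls of STAT5A and IRF7 ended without either resting array (adjusted p 0.0567 to 0.0645). The call of STAT4 stood with any 1 array left out.

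**Figure D2:**
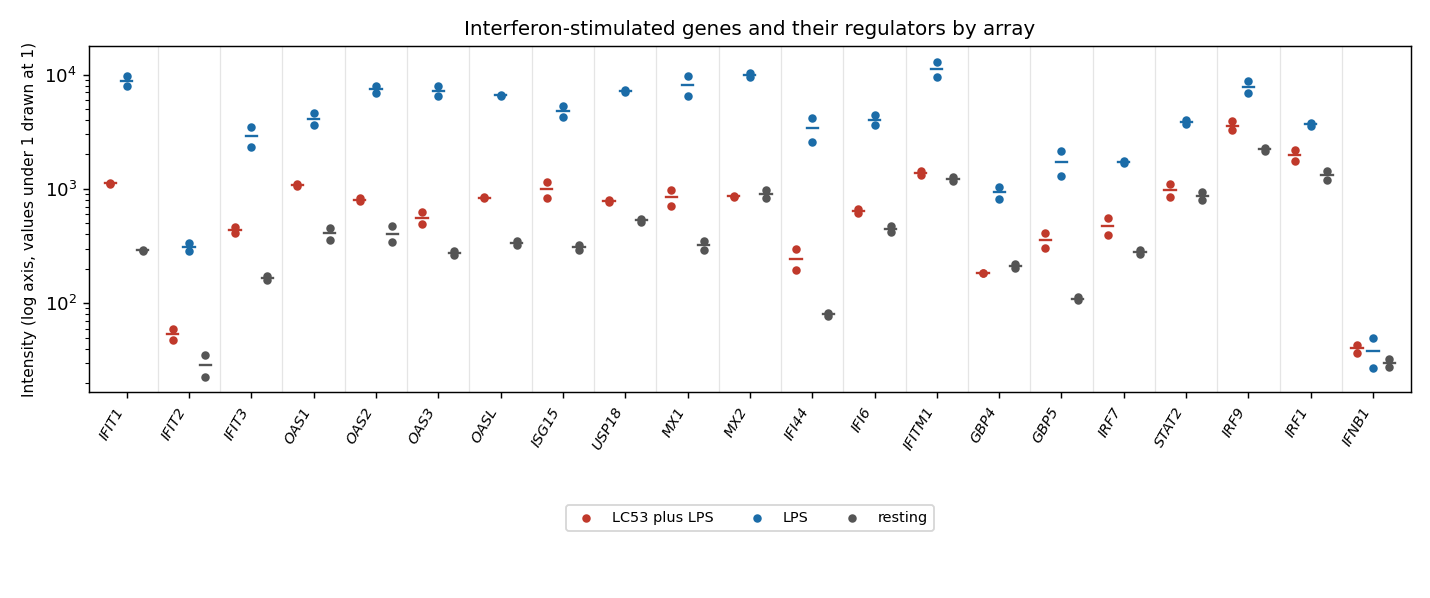
Intensity on each array (log axis, values under 1 drawn at 1) of interferon-stimulated genes and their regulators, with LC53 plus LPS in red, LPS in blue and resting in grey, 2 arrays each, and bars at the group means. In MX2, USP18, STAT2 and GBP4 the LC53 plus LPS arrays lie beside the resting ones, in IFIT1, IFI6 and IRF9 between LPS and resting.

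The ISRE core was more frequent in promoters of lowered genes than over all measured genes. It was found in 839 of 27305 RefSeq promoters (3.07%), in 375 of the 14579 measured genes with a promoter entry (2.57%), in 43 of 311 lowered genes with one (13.8%) and in 2 of 128 raised genes (1.56%). Of the 375 measured genes that hold it, 43 were lower (11.5%). By list it occurred in 4 of 6 IFIT and OAS promoters, 7 of 10 IFI and IFITM promoters, 8 of 22 of the ISG15 list, 2 of 3 CXCR3 ligands and 0 of 7 neutrophil-attracting chemokines. The NF-kB consensus was spread more evenly, in 9.57% of all promoters, 11.1% of measured genes, 13.5% of lowered and 13.3% of raised genes, and in 5 of the 7 neutrophil-attracting chemokines. Lists with lower calls held it too, in 3 of 4 IL-12 family promoters, 2 of 3 CXCR3 ligands and 6 of 11 adhesion genes. Others with lower calls rarely did, with 1 of 6 IFIT and OAS promoters and 0 of 15 for the IL-1 family and receptors. The antioxidant core TGACNNNGC was found in 11.03% of all promoters, 11.5% of measured genes, 11.6% of lowered and 17.2% of raised genes. All motifs were searched on both strands, some matches overlap, and the shares are descriptions of these 250 bases with no test.

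Chemokine calls differed in number from class to class, a difference not tested. All 3 ligands of CXCR3, the receptor of activated T cells, were lower, as were 5 of 8 monocyte-attracting CC chemokines (2 to 6). In the dendritic and homeostatic class 6 of 13 were lower (4 to 6). Of the neutrophil-attracting CXC chemokines 0 of 7 (0 to 1) passed in either direction. Over all genes 2.26% were lower and 0.882% higher, so 0 of 7 is near the share of all genes. LPS itself had raised all 3 CXCR3 ligands and 4 of the 7 neutrophil-attracting chemokines. CXCL9 had 17.2 and 17.9 with LC53 plus LPS, 283 and 390.4 with LPS and 16.9 and 17.1 at rest (log2 difference -4.25 ± 0.22, adjusted p = 0.00218), back at the resting level. CXCL10 had 1063 and 1160.5 with LC53 plus LPS, 13080.0 and 14119 with LPS and 57.5 and 71.6 at rest (log2 difference -3.61 ± 0.20, adjusted p = 0.0023). CXCL11 had 149 and 89.3 with LC53 plus LPS, 2022 and 2967 with LPS and 28.8 and 35.3 at rest (log2 difference -4.41 ± 0.33, adjusted p = 0.00546). These calls stood with any 1 array left out. The values of the 7 neutrophil-attracting CXC chemokines follow.

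CXCL8, the main neutrophil attractant, had 37474 and 33754 with LC53 plus LPS, 28285 and 27386 with LPS and 332 and 355 at rest. All LC53 plus LPS values lay above all LPS values, short of the threshold (log2 difference 0.35, 95% confidence interval -0.09 to 0.79, adjusted p = 0.35). CXCL2 had 1864 and 1447 with LC53 plus LPS, 1412 and 2139 with LPS and 42.6 and 48.4 at rest (log2 difference -0.08, 95% confidence interval -0.76 to 0.59, adjusted p = 0.894). CXCL3 had 393 and 320.2 with LC53 plus LPS, 298 and 309 with LPS and 52.6 and 57.5 at rest (log2 difference 0.23, 95% confidence interval -0.26 to 0.71, adjusted p = 0.56). The groups overlapped for CXCL2 but not for CXCL8 and CXCL3, whose LC53 plus LPS arrays were higher without passing, and all 3 stayed far above resting in both groups. CXCL1 had 13551 and 11743 with LC53 plus LPS, 20801 and 25646 with LPS and 360.0 and 384 at rest, lower in both LC53 plus LPS arrays but not called (log2 difference -0.87, 95% confidence interval -1.37 to -0.37, adjusted p = 0.101). CXCL6 had 174 and 0 with LC53 plus LPS, 192 and 284 with LPS and 5.95 and 10.1 at rest (log2 difference -4.14, 95% confidence interval -9.62 to 1.33, adjusted p = 0.373); 1 of its LC53 plus LPS arrays was listed at 0, and its difference rests on that array. CXCL5 had 33.5 and 39.1 with LC53 plus LPS, against 27.1 and 42.3 with LPS. PPBP had 92.4 and 186 with LC53 plus LPS, against 115 and 164 with LPS. Neither was called. Over the 14 alternative settings at most 1 of the 7 was called, and it was lower. That was so under each of the 3 scalings, with an offset of 50, among probes with a mean of at least 50, and without LC53 plus LPS replicate 1. The interval of CXCL1 lay wholly below 0, so its lower level missed only the adjusted threshold. The intervals of CXCL8, CXCL2, CXCL3 and CXCL6 span 0, so a fall within those bounds was not detectable with 2 arrays a group.

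Among the CC chemokines that draw monocytes, CCL2 had 2307 and 2024 with LC53 plus LPS, 39793 and 44216 with LPS and 321 and 321 at rest (log2 difference -4.28 ± 0.18, adjusted p = 0.00189). CCL8 had 338 and 542 with LC53 plus LPS, 4243 and 5109 with LPS and 242 and 315 at rest (log2 difference -3.44 ± 0.30, adjusted p = 0.00721). CCL7 had 23.6 and 26.8 with LC53 plus LPS, 116 and 145 with LPS and 19.8 and 18.2 at rest (log2 difference -2.37 ± 0.21, adjusted p = 0.00734). CCL3, the macrophage inflammatory chemokine, had 730.2 and 546 with LC53 plus LPS, 2056 and 2451 with LPS and 32.7 and 37.3 at rest (log2 difference -1.83 ± 0.23, adjusted p = 0.0211). CCL1 lay at the resting level, with 19.03 and 14.5 with LC53 plus LPS, 193 and 331 with LPS and 13.9 and 17.1 at rest (log2 difference -3.93 ± 0.32, adjusted p = 0.0064). CCL5, already bright at rest, had 28972 and 28916 with LC53 plus LPS, 45970.2 and 46742 with LPS and 19291 and 20209.6 at rest and was not called (log2 difference -0.68, 95% confidence interval -1.10 to -0.26, adjusted p = 0.119). CCL23 had 2066 and 2203 with LC53 plus LPS, against 1254 and 1437 with LPS. CCL15 had 1202 and 1123 with LC53 plus LPS, against 465 and 798 with LPS. Neither passed. In the dendritic and homeostatic class the members raised by LPS were the ones lowered. CCL20, the attractant of CCR6 cells, had 728 and 301 with LC53 plus LPS, 10302 and 10417 with LPS and 115 and 120.0 at rest (log2 difference -4.47 ± 0.41, adjusted p = 0.00884), and its LC53 plus LPS arrays differed from each other so much that the log2 difference was -5.10 without replicate 1 and -3.83 without replicate 2. CXCL13, the B cell attractant, had 11.8 and 13.4 with LC53 plus LPS, 343 and 363 with LPS and 6.94 and 9.08 at rest (log2 difference -4.81 ± 0.21, adjusted p = 0.00199). CXCL14 had 105 and 131 with LC53 plus LPS, 1798 and 2034 with LPS and 36.7 and 48.4 at rest (log2 difference -4.03 ± 0.23, adjusted p = 0.00269). CXCL12 had 535 and 787 with LC53 plus LPS, against 576 and 665 with LPS. CCL18 had 741 and 840.2 with LC53 plus LPS, against 742 and 820.2 with LPS. Neither passed the threshold. The median of that class, 0.02, changed sign under other scalings. The calls of CCL7 and CCL3 ended without LC53 plus LPS replicate 1 (adjusted p 0.0678 to 0.0806). The calls of CCL7, CCL3 and CCL1 ended without LC53 plus LPS replicate 2 (adjusted p 0.0539 to 0.145). The calls of CCL3 and CCL20 ended without LPS replicate 1 (adjusted p = 0.0573). The call of CCL3 ended without either resting array (adjusted p = 0.0664). Calls of CCL2, CCL8, CXCL13 and CXCL14 stood with any 1 array left out.

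**Figure D3:**
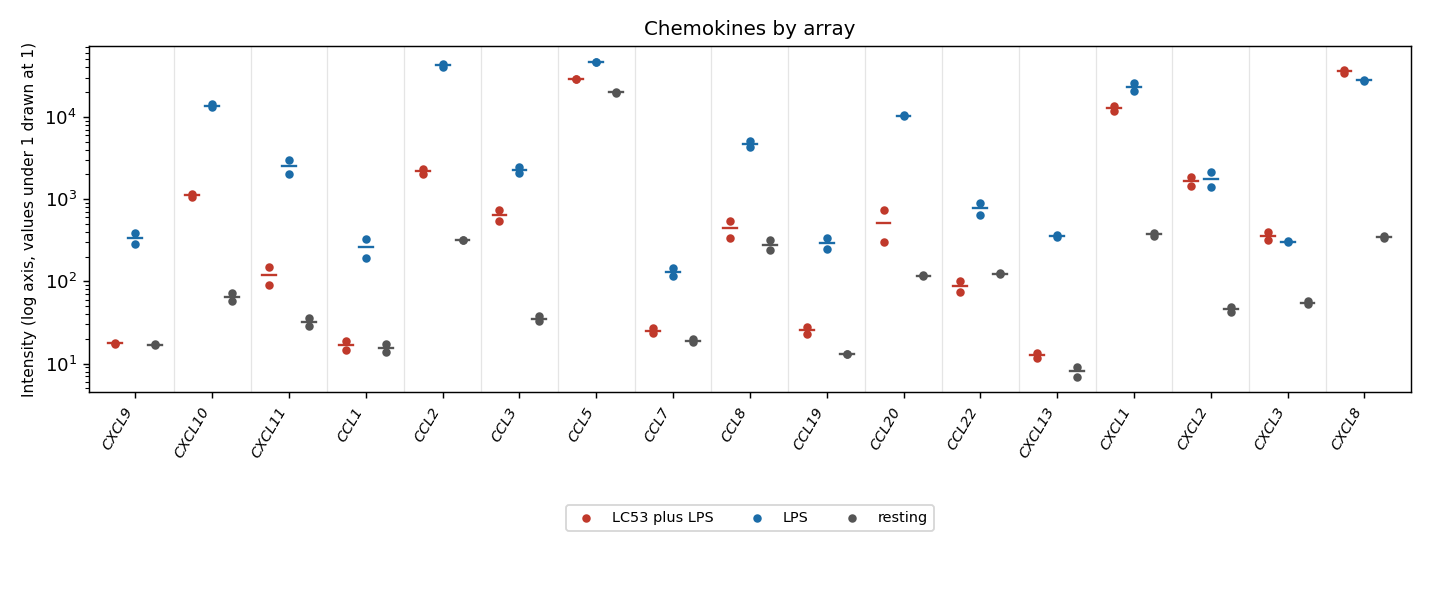
Intensity of 17 chemokines on each array (log axis, values under 1 drawn at 1), with LC53 plus LPS in red, LPS in blue, resting in grey, 2 arrays each, and bars at the group means. The LC53 plus LPS points of CXCL9, CCL1, CCL22 and CXCL13 lie at or near resting, those of CXCL2, CXCL3 and CXCL8 overlap or lie above LPS.

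IL12B had the lowest difference of all called genes on the log2(intensity + 50) scale. In the IL-12 family, the subunits that steer T cells, 3 of 5 measured members were lower (3 in each) and 0 higher, with a list median of -3.06. IL12B, shared by IL-12 and IL-23, had 10.9 and 17.9 with LC53 plus LPS, 2893 and 3090.4 with LPS and 6.94 and 10.1 at rest, within a few units of resting (log2 difference -7.75 ± 0.31, adjusted p = 0.00189). IL23A, its partner in IL-23, had 2104 and 1679 with LC53 plus LPS, 30610.0 and 39727 with LPS and 758 and 734 at rest (log2 difference -4.21 ± 0.22, adjusted p = 0.00218). EBI3, a subunit of IL-27, had 337 and 325 with LC53 plus LPS, 2410.4 and 3146 with LPS and 64.5 and 69.6 at rest (log2 difference -3.06 ± 0.21, adjusted p = 0.00412). IL12A had 19.9 and 27.9 with LC53 plus LPS, against 21.9 and 26.9 with LPS. IL27 had 361 and 398 with LC53 plus LPS, against 264 and 386 with LPS. Neither of these was called. In the IL-1 family and its receptors 7 of 17 measured members were lower (2 to 8) and 0 higher, with a list median of -0.40. IL1B, the secreted pyrogen, had 2696 and 2865 with LC53 plus LPS, 39650.5 and 37746 with LPS and 168 and 198 at rest (log2 difference -3.80 ± 0.19, adjusted p = 0.00218). IL1RN, the receptor antagonist that opposes it, fell too, with 1355 and 1340.1 with LC53 plus LPS, 14436 and 14546 with LPS and 2734 and 2839 at rest (log2 difference -3.43 ± 0.17, adjusted p = 0.00218), below its own resting level. IL18RAP, a signalling chain of the IL-18 receptor, had 321 and 499 with LC53 plus LPS, 2741 and 2714 with LPS and 123 and 160.4 at rest (log2 difference -2.77 ± 0.28, adjusted p = 0.0117). The receptor chains IL1R1 and IL1RAP were not called. IL1R1 had 889.6 and 973 with LC53 plus LPS, against 657 and 701 with LPS. IL1RAP had 519 and 422 with LC53 plus LPS, against 451 and 648 with LPS. The call of IL18RAP ended without LC53 plus LPS replicate 1 or LPS replicate 1 (adjusted p 0.0575 to 0.0606). Calls of IL12B, IL23A, EBI3, IL1B and IL1RN stood with any 1 array left out.

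A few TNF family ligands were lower. Of 16 TNF superfamily ligands 3 were lower (0 to 5) and 0 higher, with a list median of -0.48. The share lower was 18.75%, beside 2.26% of all genes. TNF had 4263 and 4533 with LC53 plus LPS, 13375 and 13751 with LPS and 683 and 873 at rest (log2 difference -1.63 ± 0.20, adjusted p = 0.0202), which left it well above resting. TNFSF10, the death ligand TRAIL, had 1836 and 1612 with LC53 plus LPS, 9535 and 10523 with LPS and 2602 and 2615 at rest (log2 difference -2.54 ± 0.18, adjusted p = 0.0048), below resting; its other probe had the opposite sign and the mean of its probes was not called (adjusted p = 0.656). LTA had 48.0 and 49.1 with LC53 plus LPS, 153 and 181 with LPS and 15.9 and 22.2 at rest (log2 difference -1.78 ± 0.23, adjusted p = 0.0233). CD70, a ligand that co-stimulates T cells, had 15271 and 16968 with LC53 plus LPS, 21688 and 22220.5 with LPS and 7599 and 8176 at rest (log2 difference -0.45, 95% confidence interval -0.89 to -0.01, adjusted p = 0.266). LTB had 520.0 and 521 with LC53 plus LPS, against 937 and 896 with LPS (log2 difference -0.82, 95% confidence interval -1.26 to -0.37, adjusted p = 0.0887). No member of the IL-6 and IL-10 families passed among 13 measured, with at most 1 lower or 2 higher under another setting. IL6 was dim throughout, with 6.34 and 4.46 with LC53 plus LPS, 10.4 and 15.4 with LPS and 2.97 and 3.03 at rest. LIF had 126 and 146 with LC53 plus LPS, against 75.0 and 120.2 with LPS. CTF1 had 52.5 and 39.1 with LC53 plus LPS, against 43.7 and 60.6 with LPS. Among 14 colony-stimulating and growth factors 1 was lower, against 6 after quantile normalization, 6 after median centring and 8 after cyclic loess. It was IL7, with 2.72 and 1.12 with LC53 plus LPS, 20.8 and 39.4 with LPS and 1.98 and 1.01 at rest, a gene near background. CSF3 was bright in every group including rest, with 47493 and 52865 with LC53 plus LPS, 39518 and 48052 with LPS and 46148 and 46473 at rest. CSF2 was listed at 0 on both LPS arrays, with 1.81 and 1.12 with LC53 plus LPS, 0 and 0 with LPS and 1.98 and 2.02 at rest. VEGFA had 293 and 263 with LC53 plus LPS, against 548 and 879 with LPS (log2 difference -1.32, 95% confidence interval -2.10 to -0.54, adjusted p = 0.106). Without 1 of its LC53 plus LPS arrays, the log2 difference of IL7 was -4.68 or -3.40, and with an offset of 50 it was -0.62 and not called (adjusted p = 0.0608). The calls of TNF, LTA and IL7 ended without LC53 plus LPS replicate 1 or LPS replicate 1 (adjusted p 0.0597 to 0.147). Every call just listed ended without LC53 plus LPS replicate 2 (adjusted p 0.0539 to 0.157). The call of IL7 ended without LPS replicate 2 (adjusted p = 0.0545). The calls of TNF and LTA ended without either resting array (adjusted p 0.0546 to 0.0642).

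Many co-stimulation receptors were lower, and few MHC genes passed. In the list of co-stimulation and activation receptors 11 of 21 measured members were lower (2 to 13) and 1 higher, with a list median of -1.59. LPS itself had raised 13 of the list, and the count of lower members was 2 to 10 with 1 array left out, lowest without LC53 plus LPS replicate 2. LAMP3, a lysosomal marker of mature dendritic cells, had 140.4 and 186 with LC53 plus LPS, 4560.4 and 5377 with LPS and 68.4 and 95.8 at rest (log2 difference -4.94 ± 0.26, adjusted p = 0.00218). IL7R had 491 and 425 with LC53 plus LPS, 8033 and 9151 with LPS and 296 and 272 at rest (log2 difference -4.23 ± 0.19, adjusted p = 0.00199). SLAMF7 had 25.4 and 23.4 with LC53 plus LPS, 264 and 433 with LPS and 4.96 and 4.03 at rest (log2 difference -3.79 ± 0.29, adjusted p = 0.00546). CD40, which receives T cell help, stayed far above rest at 9721 and 8834 with LC53 plus LPS, 24574 and 24162 with LPS and 1370.4 and 1355 at rest (log2 difference -1.39 ± 0.17, adjusted p = 0.0209). CD83 had 2118 and 1743 with LC53 plus LPS, 5034 and 5328 with LPS and 159 and 179.5 at rest (log2 difference -1.43 ± 0.20, adjusted p = 0.0269). CD274, the checkpoint ligand PD-L1, had 439 and 424 with LC53 plus LPS, 1198 and 1408 with LPS and 17.8 and 26.2 at rest (log2 difference -1.59 ± 0.25, adjusted p = 0.0371). CD80 had 20.8 and 17.9 with LC53 plus LPS, 85.4 and 148 with LPS and 2.97 and 4.03 at rest (log2 difference -2.54 ± 0.32, adjusted p = 0.0214). CD86 had 29.0 and 35.7 with LC53 plus LPS, 99.0 and 95.2 with LPS and 61.5 and 80.7 at rest (log2 difference -1.59 ± 0.22, adjusted p = 0.0283), both dim. ICOSLG, the ligand of the T cell receptor ICOS, was the 1 higher member, with 1149 and 1194 with LC53 plus LPS, 427 and 515 with LPS and 169.6 and 177 at rest (log2 difference 1.32 ± 0.19, adjusted p = 0.0298), with the opposite sign at its other probe; the mean of its probes was -0.70. TNFRSF9 had 2619 and 3163 with LC53 plus LPS, 6064 and 5377 with LPS and 103 and 126 at rest and did not pass (log2 difference -0.99, 95% confidence interval -1.51 to -0.46, adjusted p = 0.084). MHC genes gave few calls in number. Of 16 MHC class I and immunoproteasome genes 2 were lower (0 to 7) and 0 higher, with a list median of -0.38. The share lower was 12.5% here and 7.69% for the class II genes below, above the 2.26% of all genes. TAP1, the peptide transporter, had 9799 and 9800.4 with LC53 plus LPS, 23588 and 24246 with LPS and 6205 and 6141 at rest (log2 difference -1.29 ± 0.17, adjusted p = 0.0237). HLA-F had 417 and 422 with LC53 plus LPS, 1615 and 1629.8 with LPS and 426 and 448 at rest (log2 difference -1.95 ± 0.17, adjusted p = 0.00743). B2M, the light chain of class I, had 50812 and 57201 with LC53 plus LPS, 52617 and 56361 with LPS and 38728 and 59533 at rest (log2 difference -0.01, 95% confidence interval -0.65 to 0.62, adjusted p = 0.988). Of 13 class II genes 1 was lower (0 to 3), HLA-DMB, which was near background with 2.72 and 3.35 with LC53 plus LPS, 8.33 and 10.6 with LPS and 2.97 and 2.02 at rest (log2 difference -1.64 ± 0.27, adjusted p = 0.0448); with an offset of 50 it was -0.16 and not called (adjusted p = 0.226). CD74, the invariant chain, had 9542 and 9238 with LC53 plus LPS, 9103 and 10227 with LPS and 8218 and 9071 at rest (log2 difference -0.04, 95% confidence interval -0.49 to 0.41, adjusted p = 0.929). Except for LAMP3, IL7R and SLAMF7, these calls ended without LC53 plus LPS replicate 1 (adjusted p 0.0755 to 0.238). Except for LAMP3 and IL7R, these calls ended without LC53 plus LPS replicate 2 (adjusted p 0.0519 to 0.23). The calls of CD83, CD274, CD86, ICOSLG and HLA-DMB ended without LPS replicate 1 (adjusted p 0.058 to 0.0864). The calls of CD274 and HLA-DMB ended without LPS replicate 2 (adjusted p 0.0531 to 0.058). The calls of CD40, CD83, CD274, CD86, ICOSLG, TAP1 and HLA-DMB ended without either resting array (adjusted p 0.0714 to 0.12). Calls of LAMP3 and IL7R stood with any 1 array left out.

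Adhesion genes gave 3 lower calls among 17 (1 to 4), a share of 17.6% beside 2.26% of all genes. VCAM1, the vascular adhesion molecule, had 86.1 and 58.0 with LC53 plus LPS, 3980.2 and 4461 with LPS and 11.9 and 12.1 at rest (log2 difference -5.90 ± 0.24, adjusted p = 0.00189). CD44, the hyaluronan receptor, had 457 and 353 with LC53 plus LPS, 2052 and 2323 with LPS and 438 and 443 at rest (log2 difference -2.44 ± 0.21, adjusted p = 0.00716). ICAM1, the ligand of leukocyte integrins, had 1585 and 1761 with LC53 plus LPS, 6194 and 7123 with LPS and 96.2 and 124 at rest (log2 difference -1.99 ± 0.21, adjusted p = 0.0138), still well above rest. ITGB2, the common beta chain of those integrins, had 15871 and 11741 with LC53 plus LPS, 11932 and 18874 with LPS and 13876 and 13271 at rest (log2 difference -0.14, 95% confidence interval -0.85 to 0.58, adjusted p = 0.825). NINJ1, which ruptures membranes of dying cells, had 6780.2 and 6234 with LC53 plus LPS, 7888 and 10247 with LPS and 1083 and 1143 at rest (log2 difference -0.47, 95% confidence interval -0.98 to 0.04, adjusted p = 0.304). The call of ICAM1 ended without LC53 plus LPS replicate 1 (adjusted p = 0.106). The calls of CD44 and ICAM1 ended without LC53 plus LPS replicate 2 (adjusted p 0.0642 to 0.105). The call of VCAM1 stood with any 1 array left out.

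The receptor and kinase steps themselves showed few transcript differences. Of 14 genes of the TLR4 complex, adaptors and IRAK kinases 1 was higher and 0 lower, and of 20 genes for TAK1, TAB, IKK and MAP kinases 0 passed. The 1 higher gene made up 7.14% of its list, beside 0.882% of all genes. Under other settings 3 of the 20 were lower after quantile normalization, after cyclic loess and with an offset of 50, and 1 or 0 in the others. The TLR4 list had 2 lower and 2 higher after quantile normalization and cyclic loess, and 1 lower and 3 higher with an offset of 50. LY96, the LPS-binding partner of TLR4, was the higher one, with 588 and 577 with LC53 plus LPS, 252 and 273 with LPS and 265 and 265 at rest (log2 difference 1.15 ± 0.17, adjusted p = 0.0338). TLR4 had 195 and 203 with LC53 plus LPS, 289 and 417 with LPS and 226 and 319 at rest (log2 difference -0.80, 95% confidence interval -1.48 to -0.13, adjusted p = 0.212). CD14 had 770.1 and 803 with LC53 plus LPS, 1159 and 1282 with LPS and 737 and 730.2 at rest (log2 difference -0.63, 95% confidence interval -1.07 to -0.20, adjusted p = 0.146). MAP3K7, the transcript of TAK1, had 1671 and 1227 with LC53 plus LPS, 1153 and 1697 with LPS and 822 and 1168 at rest, with overlapping arrays (log2 difference 0.03, 95% confidence interval -0.73 to 0.80, adjusted p = 0.969). TAB1 had 484 and 393 with LC53 plus LPS, against 299 and 439 with LPS (log2 difference 0.27, 95% confidence interval -0.36 to 0.89, adjusted p = 0.597). TAB2 had 2487 and 2136 with LC53 plus LPS, against 2807 and 3293 with LPS (log2 difference -0.40, 95% confidence interval -0.88 to 0.08, adjusted p = 0.336). CHUK had 2159.8 and 2108 with LC53 plus LPS, against 1767 and 1899 with LPS (log2 difference 0.22, 95% confidence interval -0.21 to 0.65, adjusted p = 0.524). IKBKB had 4452 and 5530.1 with LC53 plus LPS, against 5626 and 5514 with LPS (log2 difference -0.17, 95% confidence interval -0.67 to 0.33, adjusted p = 0.681). IKBKG had 6132 and 5166 with LC53 plus LPS, against 3212 and 4526 with LPS (log2 difference 0.56, 95% confidence interval -0.05 to 1.17, adjusted p = 0.301). These are transcript levels, and the arrays did not measure kinase activity. IKBKE, the inducible IKK relative, was raised by LPS and had 730.2 and 702 with LC53 plus LPS, 1368 and 1797 with LPS and 373 and 402 at rest (log2 difference -1.13, 95% confidence interval -1.65 to -0.62, adjusted p = 0.0583), short of the threshold. IRAK2, also raised by LPS, had 1252 and 1163 with LC53 plus LPS, 1410.4 and 1988 with LPS and 184 and 199.7 at rest (log2 difference -0.47, 95% confidence interval -1.04 to 0.09, adjusted p = 0.335). The call of LY96 ended without LC53 plus LPS replicate 1, LC53 plus LPS replicate 2, LPS replicate 1, resting replicate 1 or resting replicate 2 (adjusted p 0.0625 to 0.245).

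Genes that NF-kB induces to restrain itself were lowered in part. For NF-kB subunits and IkB proteins 3 of 11 measured members were lower (0 to 5) and 0 higher, with a list median of -0.59, and for the feedback genes 4 of 14 measured members were lower (0 to 8) and 0 higher, with a list median of -1.03. With only the LC53 plus LPS and LPS arrays 0 genes of either list were called. After quantile normalization 5 subunits and 7 feedback genes were lower. REL had 891 and 674 with LC53 plus LPS, 1847 and 2263 with LPS and 253 and 269 at rest (log2 difference -1.40 ± 0.23, adjusted p = 0.0412). NFKBIZ, a nuclear cofactor for secondary response genes, had 3499 and 4268 with LC53 plus LPS, 9258 and 9826 with LPS and 465 and 566 at rest (log2 difference -1.30 ± 0.21, adjusted p = 0.0402). NFKBID had 309.8 and 315 with LC53 plus LPS, 653 and 694 with LPS and 244 and 239 at rest (log2 difference -1.11 ± 0.17, adjusted p = 0.0371). RELB, by contrast, had 1377 and 1033 with LC53 plus LPS, 975 and 1507 with LPS and 152 and 161 at rest, with overlapping groups (log2 difference -0.02, 95% confidence interval -0.72 to 0.67, adjusted p = 0.978). RELA had 3041 and 2778 with LC53 plus LPS, against 2069.8 and 2634 with LPS (log2 difference 0.32, 95% confidence interval -0.20 to 0.83, adjusted p = 0.457). NFKB1 and NFKB2, the precursor subunits, lay between LPS and rest without passing. NFKB1 had 2798 and 2677 with LC53 plus LPS, 4553 and 6476 with LPS and 823 and 860.3 at rest (log2 difference -0.99, 95% confidence interval -1.55 to -0.43, adjusted p = 0.0988). NFKB2 had 1959.6 and 1735 with LC53 plus LPS, 3128 and 3839 with LPS and 168 and 176 at rest (log2 difference -0.91, 95% confidence interval -1.40 to -0.42, adjusted p = 0.0876). NFKBIA, the first inhibitor induced, was saturated on every LC53 plus LPS and LPS array, so no difference could be read. Of the feedback genes, TNFAIP3, the deubiquitinase A20, had 4937 and 6096 with LC53 plus LPS, 13495 and 14108 with LPS and 1025 and 1265 at rest (log2 difference -1.33 ± 0.21, adjusted p = 0.04). TNIP1, its partner, had 852 and 965 with LC53 plus LPS, 2699 and 3015 with LPS and 397 and 499 at rest (log2 difference -1.65 ± 0.21, adjusted p = 0.0211). BIRC3 had 482 and 354 with LC53 plus LPS, 1407 and 1287 with LPS and 15.9 and 20.2 at rest (log2 difference -1.70 ± 0.24, adjusted p = 0.0287). TRAF1, an adaptor of TNF receptors, had 32.6 and 36.8 with LC53 plus LPS, 106 and 148 with LPS and 5.95 and 8.07 at rest (log2 difference -1.86 ± 0.26, adjusted p = 0.0283). ZC3H12A, the RNase that decays cytokine transcripts, had 3474 and 2825 with LC53 plus LPS, 6464 and 8492 with LPS and 274 and 284 at rest (log2 difference -1.24, 95% confidence interval -1.80 to -0.69, adjusted p = 0.056). All of these remained above rest on both LC53 plus LPS arrays. Every call just listed ended without LC53 plus LPS replicate 1, LC53 plus LPS replicate 2, LPS replicate 1, resting replicate 1 or resting replicate 2 (adjusted p 0.0528 to 0.267). The calls of REL, NFKBIZ and TNFAIP3 ended without LPS replicate 2 (adjusted p 0.0516 to 0.0517).

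**Figure D4:**
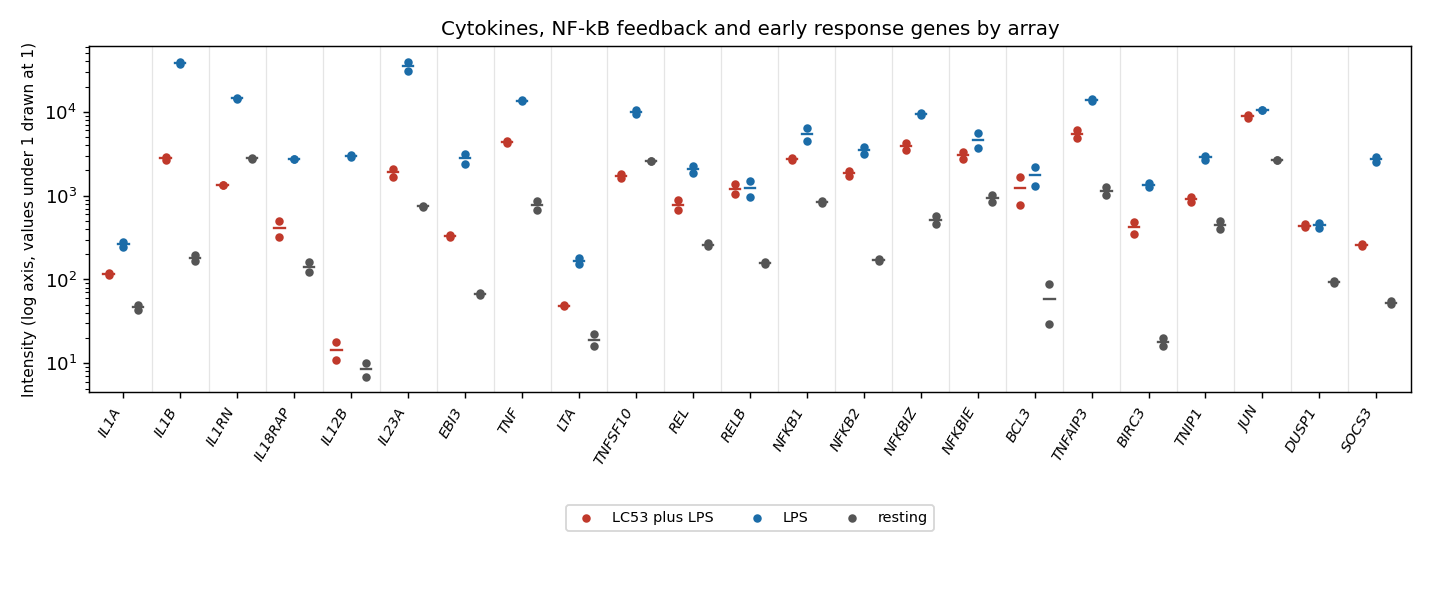
Intensity on each array (log axis) of cytokine genes, NF-kB subunits and feedback genes, and early response genes, with LC53 plus LPS in red, LPS in blue, resting in grey, 2 arrays each, and bars at the group means. IL12B lies just above resting, IL1B and SOCS3 lie between LPS and resting, and RELB, BCL3 and DUSP1 overlap between LC53 plus LPS and LPS.

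Early response genes gave few calls in number. Of 25 AP-1, EGR and immediate early genes 2 were lower (1 to 6), of 15 MAP kinase phosphatases and decay regulators 2 (0 to 4), and of 8 SOCS genes 1 (1 to 2). These shares were 8%, 13.3% and 12.5% in that order, above the 2.26% of all genes. BATF2 had 107 and 78.1 with LC53 plus LPS, 729 and 870.2 with LPS and 61.5 and 49.4 at rest (log2 difference -3.12 ± 0.25, adjusted p = 0.00583), with the opposite sign at its other probe. IER3, an early survival gene, had 386 and 397 with LC53 plus LPS, 2878 and 2949 with LPS and 63.5 and 71.6 at rest (log2 difference -2.90 ± 0.18, adjusted p = 0.00323). SOCS3, the brake on IL-6 type receptors, had 250.04 and 264 with LC53 plus LPS, 2541 and 2935 with LPS and 50.6 and 55.5 at rest (log2 difference -3.41 ± 0.19, adjusted p = 0.0022). DUSP2, a nuclear MAP kinase phosphatase, had 771 and 671 with LC53 plus LPS, 1555 and 1759.6 with LPS and 332 and 342 at rest (log2 difference -1.20 ± 0.19, adjusted p = 0.0377). BTG2, an antiproliferative cofactor of decay, had 5262 and 5273 with LC53 plus LPS, 21194 and 19008 with LPS and 1035 and 1186 at rest (log2 difference -1.93 ± 0.19, adjusted p = 0.0102). DUSP1, the phosphatase of p38 and JNK, had 455 and 425 with LC53 plus LPS, 417 and 466 with LPS and 96.2 and 89.8 at rest (log2 difference -0.004, 95% confidence interval -0.45 to 0.44, adjusted p = 0.997). DUSP4 had 1459 and 1347 with LC53 plus LPS, 1357 and 1483 with LPS and 303 and 285 at rest (log2 difference -0.02, 95% confidence interval -0.46 to 0.42, adjusted p = 0.973). Both were above rest on every LPS-treated array. ATF3, a stress-induced repressor, had 3187 and 4426 with LC53 plus LPS, 2430.2 and 2238 with LPS and 707 and 766 at rest (log2 difference 0.69, 95% confidence interval 0.13 to 1.24, adjusted p = 0.198). JUNB had 109 and 66.9 with LC53 plus LPS, 199 and 225 with LPS and 34.7 and 32.3 at rest (log2 difference -1.31, 95% confidence interval -1.99 to -0.63, adjusted p = 0.0789). SOCS1 had 138 and 152 with LC53 plus LPS, against 267 and 285 with LPS (log2 difference -0.93, 95% confidence interval -1.38 to -0.48, adjusted p = 0.0663). The calls of DUSP2 and BTG2 ended without LC53 plus LPS replicate 1 (adjusted p 0.085 to 0.177). The calls of BATF2, DUSP2 and BTG2 ended without LC53 plus LPS replicate 2 (adjusted p 0.0519 to 0.279). The call of DUSP2 ended without LPS replicate 1, resting replicate 1 or resting replicate 2 (adjusted p 0.0615 to 0.15). Calls of IER3 and SOCS3 stood with any 1 array left out.

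Effector enzymes outside the cytokine classes were mixed. IDO1, which starts tryptophan breakdown and is known as interferon-induced, had 102 and 129 with LC53 plus LPS, 5356 and 5527 with LPS and 20.8 and 28.2 at rest (log2 difference -5.56 ± 0.24, adjusted p = 0.00189). KYNU, further down the same route, had 23647 and 20280.2 with LC53 plus LPS, 17968 and 20026 with LPS and 4093 and 4911 at rest (log2 difference 0.21, 95% confidence interval -0.29 to 0.71, adjusted p = 0.608), with no detectable fall. ACMSD, which diverts the route from NAD, was higher, with 449 and 435 with LC53 plus LPS, 104 and 173 with LPS and 65.4 and 68.6 at rest (log2 difference 1.72 ± 0.28, adjusted p = 0.0403). TDO2 had 592 and 521 with LC53 plus LPS, 221 and 275 with LPS and 232 and 225 at rest (log2 difference 1.17 ± 0.20, adjusted p = 0.0499). WARS1 had 1371 and 1248 with LC53 plus LPS, against 2444 and 2669 with LPS and was not called (log2 difference -0.97, 95% confidence interval -1.41 to -0.52, adjusted p = 0.0606). PTGS2, the inducible cyclooxygenase, had 452 and 530.0 with LC53 plus LPS, 1796 and 1923 with LPS and 207 and 250.1 at rest (log2 difference -1.92 ± 0.20, adjusted p = 0.0128), 1 of 2 lower (0 to 4) among 17 prostaglandin and leukotriene genes. PTGIR, the prostacyclin receptor, was the other, with 164.88 and 167 with LC53 plus LPS, 403 and 483 with LPS and 138 and 147 at rest (log2 difference -1.41 ± 0.19, adjusted p = 0.0243). ALOX5AP, needed for leukotriene synthesis, had 21806 and 20068 with LC53 plus LPS, 20791 and 23904 with LPS and 9844 and 9931 at rest (log2 difference -0.09, 95% confidence interval -0.54 to 0.36, adjusted p = 0.813). BCL2A1, a survival protein induced by NF-kB, had 70.7 and 51.3 with LC53 plus LPS, 1562 and 1503 with LPS and 10.9 and 11.1 at rest (log2 difference -4.67 ± 0.22, adjusted p = 0.00204) and was the 1 lower call (1 to 6) among 21 survival and death genes. PMAIP1, the BH3-only protein NOXA, was the 1 higher one (0 to 2), with 12682 and 11567 with LC53 plus LPS, 5239.5 and 6055 with LPS and 2739.9 and 2937 at rest (log2 difference 1.10 ± 0.19, adjusted p = 0.0473). MCL1, the partner that NOXA binds, had 11337 and 10693 with LC53 plus LPS, 11168 and 12182 with LPS and 8252 and 7929.9 at rest (log2 difference -0.08, 95% confidence interval -0.52 to 0.35, adjusted p = 0.825). Except for IDO1 and BCL2A1, these calls ended without either LC53 plus LPS array (adjusted p 0.0921 to 0.275). The calls of TDO2 and PMAIP1 ended without LPS replicate 1 (adjusted p 0.0815 to 0.0827). Except for IDO1, PTGS2 and BCL2A1, these calls ended without either resting array (adjusted p 0.101 to 0.178). Calls of IDO1 and BCL2A1 stood with any 1 array left out.

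Proteases and their inhibitors showed 2 lower (1 to 7) and 1 higher call among 22 metalloproteinase and matrix genes and 5 lower calls (0 to 8) among 16 coagulation and serpin genes. MMP1, the collagenase, had 18.1 and 24.5 with LC53 plus LPS, 394 and 534 with LPS and 17.8 and 19.2 at rest (log2 difference -4.44 ± 0.25, adjusted p = 0.00254). MMP9, the gelatinase, had 364 and 365 with LC53 plus LPS, 2162 and 2505 with LPS and 168 and 179 at rest (log2 difference -2.67 ± 0.18, adjusted p = 0.00412). ADAM17, the sheddase of TNF, was higher, with 5148 and 5526 with LC53 plus LPS, 2454 and 2528 with LPS and 1840.5 and 2150.2 at rest (log2 difference 1.10 ± 0.18, adjusted p = 0.0465). TNFAIP6, a hyaluronan-binding protein, had 7352 and 5729.8 with LC53 plus LPS, 11475 and 16491 with LPS and 26.8 and 23.2 at rest (log2 difference -1.08, 95% confidence interval -1.73 to -0.44, adjusted p = 0.107). PTX3, a secreted pattern receptor, had 4296 and 5152 with LC53 plus LPS, 7784 and 8154 with LPS and 681 and 785 at rest (log2 difference -0.76, 95% confidence interval -1.25 to -0.27, adjusted p = 0.125). SERPINE2, an inhibitor of thrombin, had 2312 and 1869 with LC53 plus LPS, 6999.9 and 7684 with LPS and 474 and 518 at rest (log2 difference -1.82 ± 0.20, adjusted p = 0.0148), with the opposite sign at its other probe, and the mean of its probes was -0.83 and not called (adjusted p = 0.112). THBD, thrombomodulin, had 484 and 549 with LC53 plus LPS, 1142 and 1461 with LPS and 619 and 684 at rest (log2 difference -1.33 ± 0.21, adjusted p = 0.0396). SERPINA1, the inhibitor of neutrophil elastase, had 22.6 and 26.8 with LC53 plus LPS, 102 and 124 with LPS and 47.6 and 54.5 at rest (log2 difference -2.19 ± 0.21, adjusted p = 0.0101), but the mean of its probes was not called (adjusted p = 0.903). SERPINB8 had 1460.4 and 1514 with LC53 plus LPS, 3509 and 3655 with LPS and 3511 and 3699 at rest (log2 difference -1.27 ± 0.17, adjusted p = 0.0259), and the mean of its probes was not called (adjusted p = 0.0546). SERPINB9, the inhibitor of granzyme B, had 30.8 and 33.5 with LC53 plus LPS, 147 and 179 with LPS and 24.8 and 28.2 at rest (log2 difference -2.34 ± 0.20, adjusted p = 0.00721). SERPINB2, which LPS lowered in these arrays, had 503 and 563 with LC53 plus LPS, 554 and 519 with LPS and 12076 and 13804 at rest (log2 difference -0.01, 95% confidence interval -0.47 to 0.45, adjusted p = 0.987) and lay far below rest in both groups. F3, tissue factor, had 1534 and 1452 with LC53 plus LPS, against 1136 and 1395 with LPS (log2 difference 0.24, 95% confidence interval -0.23 to 0.72, adjusted p = 0.524). Complement gave 2 lower (0 to 5) of 16, a share of 12.5% beside 2.26% of all genes. C3AR1, the anaphylatoxin receptor, had 391 and 349 with LC53 plus LPS, 2210.4 and 2404 with LPS and 153 and 177 at rest (log2 difference -2.64 ± 0.19, adjusted p = 0.0048). CFP, properdin, had 500.1 and 523 with LC53 plus LPS, 1944 and 2071 with LPS and 749.7 and 785 at rest (log2 difference -1.97 ± 0.17, adjusted p = 0.00751). In the inflammasome list CASP5 was lower, with 69.8 and 71.4 with LC53 plus LPS, 207 and 256 with LPS and 40.7 and 50.4 at rest (log2 difference -1.71 ± 0.21, adjusted p = 0.0208), as was NAIP, with 329 and 333 with LC53 plus LPS, 777 and 726 with LPS and 1206 and 1319 at rest (log2 difference -1.18 ± 0.18, adjusted p = 0.0328), below both LPS and rest. GSDME, a pore-forming executor, was higher, with 498 and 469.8 with LC53 plus LPS, 233 and 246 with LPS and 474 and 500.2 at rest (log2 difference 1.01 ± 0.17, adjusted p = 0.04997). CASP1 had 2185 and 2663 with LC53 plus LPS, against 4469.7 and 5144 with LPS and was not called (log2 difference -0.99, 95% confidence interval -1.74 to -0.24, adjusted p = 0.178). Except for MMP1, MMP9 and C3AR1, these calls ended without LC53 plus LPS replicate 1 (adjusted p 0.0675 to 0.284). Except for MMP1, these calls ended without LC53 plus LPS replicate 2 (adjusted p 0.0517 to 0.308). The calls of ADAM17, THBD, SERPINB8, NAIP and GSDME ended without LPS replicate 1 (adjusted p 0.0509 to 0.0847). The calls of ADAM17, SERPINE2, THBD, SERPINB8, CASP5, NAIP and GSDME ended without either resting array (adjusted p 0.0566 to 0.198). The call of MMP1 stood with any 1 array left out.

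The NRF2 program exceeded the LPS level in part, and it was not the only arm to do so. Its 4 lists, with 46 measured genes in all, had 11 higher members and 0 lower. Other lists held higher members too. The share was 20% for tryptophan and kynurenine enzymes, 13.3% for lipid efflux, scavenger receptor and lipid droplet genes, 10.5% for chaperones and 10% for ATF4 and serine synthesis genes. The 11 became 2 without either LC53 plus LPS array, 5 without LPS replicate 1, 16 without LPS replicate 2 and 6 without either resting array. They became 23 after quantile normalization, 17 after median centring, 20 after cyclic loess and 22 with an offset of 50, each beside 1 lower member. Among probes with a mean of at least 50, 21 of 41 members were higher. By list 3 of 10 haem and iron genes (1 to 6) were higher, 2 of 14 glutathione and thioredoxin genes (0 to 6), 4 of 15 reductase and NADPH genes, and 2 of 7 regulators (1 to 2), against 0.882% of all genes. The list medians were 0.65, 0.63, 0.95 and 0.27 in that order, beside 0.16 for all genes. HMOX1, the haem oxygenase that yields biliverdin and iron, had 7712 and 7642 with LC53 plus LPS, 886 and 1019 with LPS and 73.4 and 78.7 at rest (log2 difference 3.01 ± 0.18, adjusted p = 0.00314). OSGIN1, an oxidative stress inducible growth inhibitor, had 5909 and 5535 with LC53 plus LPS, 598 and 715 with LPS and 198 and 183 at rest (log2 difference 3.13 ± 0.19, adjusted p = 0.00323). LPS had raised both above rest, and LC53 plus LPS arrays stood higher still. SRXN1, which repairs peroxiredoxins, had 14967 and 9396 with LC53 plus LPS, 1643 and 2499 with LPS and 977 and 742 at rest (log2 difference 2.55 ± 0.34, adjusted p = 0.0237). SLC7A11, the cystine importer, had 14744 and 13888 with LC53 plus LPS, 5294 and 6237 with LPS and 1055 and 1142 at rest (log2 difference 1.32 ± 0.19, adjusted p = 0.0296), and the mean of its probes was not called (adjusted p = 0.0765). SQSTM1, the autophagy receptor p62 that binds KEAP1, had 3461 and 2906 with LC53 plus LPS, 695 and 868 with LPS and 190.4 and 216 at rest (log2 difference 2.03 ± 0.21, adjusted p = 0.013). The calls of SRXN1, SLC7A11 and SQSTM1 ended without either LC53 plus LPS array (adjusted p 0.0812 to 0.199). The calls of SRXN1 and SLC7A11 ended without LPS replicate 1, resting replicate 1 or resting replicate 2 (adjusted p 0.0537 to 0.119). Calls of HMOX1 and OSGIN1 stood with any 1 array left out.

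Among the reductases and related enzymes 4 of 15 passed as higher (0 to 9). CBR3, a carbonyl reductase, had 1594 and 1588 with LC53 plus LPS, 351 and 413 with LPS and 267 and 301 at rest (log2 difference 2.06 ± 0.19, adjusted p = 0.00884). AKR1C1, an aldo-keto reductase, had 423 and 427 with LC53 plus LPS, 99.999 and 124 with LPS and 76.4 and 93.8 at rest (log2 difference 1.93 ± 0.21, adjusted p = 0.0146), with a second probe of opposite sign and no call for the mean of its probes. AKR1B10, another aldo-keto reductase, was dim, with 13.6 and 16.7 with LC53 plus LPS, 3.12 and 3.85 with LPS and 2.97 and 2.02 at rest (log2 difference 2.12 ± 0.27, adjusted p = 0.0211); with an offset of 50 its difference was 0.28 and not called (adjusted p = 0.0795). PGD, of the pentose phosphate path, had 27189.5 and 32329 with LC53 plus LPS, 12538 and 12903 with LPS and 6363 and 7529.6 at rest (log2 difference 1.22 ± 0.20, adjusted p = 0.0421). GSTM3, a glutathione transferase, had 2358 and 2357 with LC53 plus LPS, 874 and 1034 with LPS and 1007 and 991 at rest (log2 difference 1.31 ± 0.18, adjusted p = 0.0283). BLVRB, a biliverdin reductase, had 6199 and 5838 with LC53 plus LPS, 2425 and 2659 with LPS and 4999 and 4651 at rest (log2 difference 1.24 ± 0.18, adjusted p = 0.0299). Several known NRF2 targets were higher on both LC53 plus LPS arrays without passing. TXNRD1, thioredoxin reductase, had 33809 and 26806 with LC53 plus LPS, 10049 and 12484 with LPS and 8302 and 6143 at rest (log2 difference 1.43, 95% confidence interval 0.80 to 2.05, adjusted p = 0.0532). GSR, glutathione reductase, had 8066 and 5263 with LC53 plus LPS, 1805 and 2426 with LPS and 1291 and 980.3 at rest (log2 difference 1.64, 95% confidence interval 0.89 to 2.38, adjusted p = 0.058). GCLM, the modifier subunit of glutathione synthesis, had 3703 and 1876 with LC53 plus LPS, 677 and 1076 with LPS and 224 and 228 at rest (log2 difference 1.63, 95% confidence interval 0.67 to 2.59, adjusted p = 0.106). Its catalytic partner GCLC had 621 and 693 with LC53 plus LPS, 518 and 590.4 with LPS and 538 and 661 at rest (log2 difference 0.25, 95% confidence interval -0.26 to 0.75, adjusted p = 0.545). NQO1, a quinone reductase and known NRF2 target, was dim, with 19.9 and 21.2 with LC53 plus LPS, 17.7 and 22.1 with LPS and 16.9 and 22.2 at rest. FTH1, the ferritin heavy chain, was raised by LPS and had 15208 and 13368 with LC53 plus LPS, 12512 and 14888 with LPS and 697 and 848 at rest (log2 difference 0.06, 95% confidence interval -0.46 to 0.58, adjusted p = 0.894). The factor's own transcript NFE2L2 had 17570.1 and 17268 with LC53 plus LPS, 25340.3 and 31044 with LPS and 8186 and 8696 at rest (log2 difference -0.69, 95% confidence interval -1.16 to -0.21, adjusted p = 0.147). KEAP1 had 2384 and 1341 with LC53 plus LPS, 679 and 1091 with LPS and 820.1 and 635 at rest (log2 difference 1.05, 95% confidence interval 0.13 to 1.98, adjusted p = 0.226). PIR, an iron-binding nuclear protein, had 5930.4 and 5549 with LC53 plus LPS, 2247 and 2738 with LPS and 516 and 561 at rest (log2 difference 1.21 ± 0.19, adjusted p = 0.041). TRIM16L had 1662 and 1525 with LC53 plus LPS, 336 and 362 with LPS and 153 and 165.40 at rest (log2 difference 2.19 ± 0.18, adjusted p = 0.00643); both are known NRF2 targets and were named after their values were seen. Every call just listed ended without either LC53 plus LPS array (adjusted p 0.0635 to 0.292). Except for CBR3, AKR1C1 and TRIM16L, these calls ended without LPS replicate 1 (adjusted p 0.056 to 0.0886). The calls of PGD, GSTM3, BLVRB and PIR ended without either resting array (adjusted p 0.119 to 0.152).

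**Figure D5:**
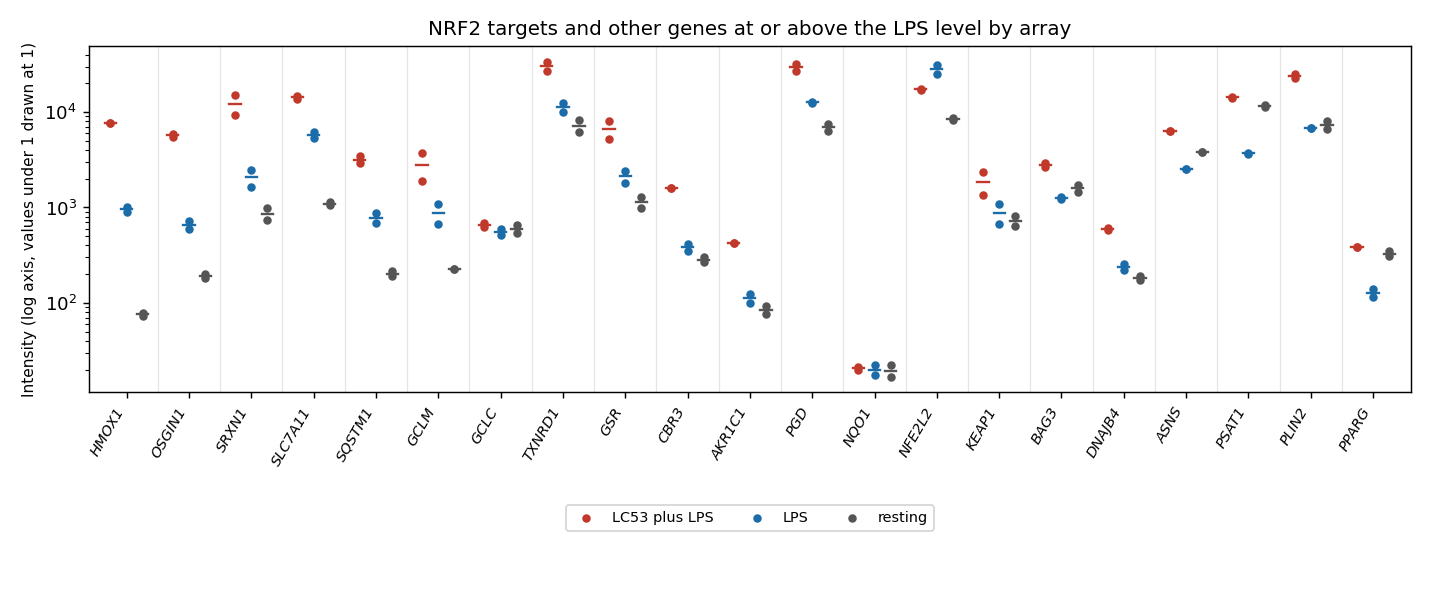
Intensity on each array (log axis) of NRF2 targets and of chaperone, amino acid and lipid genes, with LC53 plus LPS in red, LPS in blue, resting in grey, 2 arrays each, and bars at the group means. HMOX1, OSGIN1, SRXN1 and CBR3 show the LC53 plus LPS arrays above all others, PSAT1 and PPARG near or above resting, and NQO1 shows no separation. For GCLC the LC53 plus LPS arrays lie slightly above the LPS arrays and overlap with resting.

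Other stress and metabolic lists held a few higher members each in number. The share higher was 10.5% for chaperones, 10% for ATF4 and serine synthesis genes and 13.3% for the lipid list, beside 0.882% of all genes. Of 19 chaperone genes 2 were higher (0 to 6), BAG3 and DNAJB4, of 20 ATF4 and serine synthesis genes 2 (0 to 7), ASNS and PSAT1, and of 15 ER chaperone genes 0. BAG3, a co-chaperone of HSP70, had 2671 and 2899 with LC53 plus LPS, 1218 and 1277 with LPS and 1457 and 1738 at rest (log2 difference 1.16 ± 0.19, adjusted p = 0.0431). DNAJB4 had 614 and 582 with LC53 plus LPS, 221 and 256 with LPS and 172 and 192 at rest (log2 difference 1.33 ± 0.19, adjusted p = 0.0287). PSAT1, of serine synthesis, was lowered by LPS and had 14514 and 14043 with LC53 plus LPS, 3604 and 3764 with LPS and 11979.9 and 11288 at rest (log2 difference 1.95 ± 0.17, adjusted p = 0.00751), back at or above rest. ASNS, asparagine synthetase, had 6404 and 6357 with LC53 plus LPS, 2543 and 2539 with LPS and 3774 and 3779 at rest (log2 difference 1.33 ± 0.17, adjusted p = 0.0217). PLIN2, the lipid droplet coat, had 23049 and 25183 with LC53 plus LPS, 6784 and 6871 with LPS and 6646 and 8027 at rest (log2 difference 1.82 ± 0.19, adjusted p = 0.0129). PPARG, a lipid-sensing nuclear receptor, had 387 and 389 with LC53 plus LPS, 116 and 139 with LPS and 306 and 350.0 at rest (log2 difference 1.61 ± 0.20, adjusted p = 0.0196). LPL, the lipase, was lower, with 2237 and 2039.7 with LC53 plus LPS, 4802 and 6221 with LPS and 3079 and 3256 at rest (log2 difference -1.36 ± 0.21, adjusted p = 0.0357). CTSL, a lysosomal protease, was higher, with 12114 and 11694 with LC53 plus LPS, 4413 and 5336 with LPS and 4996 and 5434 at rest (log2 difference 1.29 ± 0.19, adjusted p = 0.0328). CAT, catalase, was lowered by LPS and had 23076 and 23382 with LC53 plus LPS, 6447 and 7013 with LPS and 21465 and 22759 at rest (log2 difference 1.79 ± 0.18, adjusted p = 0.0108), at the resting level; it was named after its values were seen. MT2A, a metallothionein, was lower, with 3074 and 2390.1 with LC53 plus LPS, 9245 and 13757 with LPS and 2219 and 2146 at rest (log2 difference -2.06 ± 0.26, adjusted p = 0.0217). Every call just listed ended without either LC53 plus LPS array (adjusted p 0.0773 to 0.294). The calls of BAG3, DNAJB4 and CTSL ended without LPS replicate 1 (adjusted p 0.0625 to 0.0854). Except for PSAT1, PLIN2 and CAT, these calls ended without either resting array (adjusted p 0.0658 to 0.15).

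Housekeeping arms had few calls. None of 26 respiratory chain genes and none of 14 sterol genes passed as deposited, with at most 3 respiratory chain genes higher and 2 sterol genes higher or 1 lower under another setting, and 1 of 25 glycolysis genes (0 to 3), 1 of 17 p53 targets (0 to 6) and 1 of 30 cell cycle genes (0 to 6) were lower, beside 2.26% of all genes. CCND1, a G1 cyclin, had 66.1 and 64.7 with LC53 plus LPS, 179 and 208 with LPS and 61.5 and 69.6 at rest (log2 difference -1.56 ± 0.19, adjusted p = 0.0194). PLK3, a stress-responsive kinase, had 722 and 664 with LC53 plus LPS, 1529 and 1731 with LPS and 335 and 339.9 at rest (log2 difference -1.23 ± 0.18, adjusted p = 0.032). SLC2A3, a glucose transporter, had 39.9 and 39.1 with LC53 plus LPS, 159 and 163 with LPS and 49.6 and 47.4 at rest (log2 difference -2.03 ± 0.17, adjusted p = 0.00686). PCNA, the replication clamp, had 27502 and 30055 with LC53 plus LPS, 33106 and 28780.2 with LPS and 30262 and 33369.7 at rest (log2 difference -0.10, 95% confidence interval -0.57 to 0.36, adjusted p = 0.794). COX6C, a cytochrome oxidase subunit, had 50688 and 50726 with LC53 plus LPS, 40286 and 45489 with LPS and 37248 and 40337 at rest (log2 difference 0.24, 95% confidence interval -0.20 to 0.69, adjusted p = 0.5). The sign of the sterol and glycolysis medians changed with the scaling. The calls of CCND1, PLK3 and SLC2A3 ended without either LC53 plus LPS array (adjusted p 0.0678 to 0.249). The call of PLK3 ended without LPS replicate 1 (adjusted p = 0.0512). The calls of CCND1 and PLK3 ended without either resting array (adjusted p 0.0738 to 0.134).

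Several myeloid genes were lower than with LPS alone, and CX3CR1, CCR2, KIT and FGL2 were also lower than at rest by the same fit. Of 26 monocyte and macrophage lineage genes 4 were lower (0 to 10) and 0 higher. CX3CR1, the fractalkine receptor, had 137 and 117 with LC53 plus LPS, 385 and 491 with LPS and 858 and 875 at rest (log2 difference -1.78 ± 0.21, adjusted p = 0.0183). CSF1R, the macrophage growth factor receptor, had 891 and 879 with LC53 plus LPS, 2078 and 2651 with LPS and 1851 and 1944 at rest (log2 difference -1.41 ± 0.20, adjusted p = 0.029). CCR2, the receptor of CCL2, had 3571 and 3031 with LC53 plus LPS, 7276 and 8909.7 with LPS and 13607 and 14424 at rest (log2 difference -1.29 ± 0.20, adjusted p = 0.039). S100A12, an alarmin raised by LPS, had 829 and 999.8 with LC53 plus LPS, 3312 and 3792 with LPS and 431 and 543 at rest (log2 difference -1.96 ± 0.22, adjusted p = 0.0155). S100A9 had 22180.5 and 22416 with LC53 plus LPS, 31016 and 40648 with LPS and 18198 and 20439 at rest (log2 difference -0.67, 95% confidence interval -1.19 to -0.15, adjusted p = 0.184). KIT, the stem cell factor receptor, had 148 and 153 with LC53 plus LPS, 1779 and 1905 with LPS and 3162 and 3479 at rest (log2 difference -3.62 ± 0.18, adjusted p = 0.00218), on both LC53 plus LPS arrays an order of magnitude below either other group. FGL2, a prothrombinase, had 130.5 and 169.6 with LC53 plus LPS, 2716 and 2688 with LPS and 362 and 459 at rest (log2 difference -4.18 ± 0.23, adjusted p = 0.00218). PTAFR, the receptor of platelet activating factor, had 668 and 761 with LC53 plus LPS, 8057 and 7515 with LPS and 398 and 428 at rest (log2 difference -3.45 ± 0.18, adjusted p = 0.00218). STEAP4, a metalloreductase, had 419 and 280.1 with LC53 plus LPS, 2135 and 3579 with LPS and 5.95 and 9.08 at rest (log2 difference -3.01 ± 0.37, adjusted p = 0.02). MS4A3, a granulocyte and monocyte progenitor gene, was higher, with 15849.7 and 16841 with LC53 plus LPS, 6127 and 7078 with LPS and 29825 and 27418 at rest (log2 difference 1.31 ± 0.19, adjusted p = 0.0288). KIT, FGL2, PTAFR, STEAP4 and MS4A3 were chosen after their values were seen. Except for KIT, FGL2 and PTAFR, these calls ended without either LC53 plus LPS array (adjusted p 0.0755 to 0.277). The calls of CCR2 and MS4A3 ended without LPS replicate 1 (adjusted p 0.0574 to 0.0615). The calls of CX3CR1, CSF1R, CCR2 and MS4A3 ended without either resting array (adjusted p 0.0658 to 0.139). Calls of KIT, FGL2 and PTAFR stood with any 1 array left out.

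The remaining genes of the 10 highest differences lay outside the lists. EDNRB, an endothelin receptor, had 2648 and 2406 with LC53 plus LPS, 262 and 325 with LPS and 127 and 124 at rest (log2 difference 3.11 ± 0.20, adjusted p = 0.00344). PADI1, a peptidylarginine deiminase, was listed at 0 on both LPS arrays, with 294 and 345 with LC53 plus LPS, 0 and 0 with LPS and 283 and 304 at rest, so its call is given by its values alone. The other probe of PADI1 did not share the sign of this difference. NMT2, an N-myristoyltransferase, had 920.5 and 977 with LC53 plus LPS, 157 and 186 with LPS and 117 and 120.0 at rest (log2 difference 2.47 ± 0.19, adjusted p = 0.00546). MTHFD2L, a mitochondrial folate enzyme, had 2297 and 2329 with LC53 plus LPS, 452 and 543 with LPS and 287 and 314 at rest (log2 difference 2.22 ± 0.19, adjusted p = 0.00721). CDK5RAP2, a centrosome protein, had 4555 and 3643 with LC53 plus LPS, 710.4 and 1263 with LPS and 586 and 709 at rest (log2 difference 2.10 ± 0.32, adjusted p = 0.0359). ANKRD30BL had 7060.1 and 6008 with LC53 plus LPS, 979 and 1261 with LPS and 1209 and 1189 at rest (log2 difference 2.55 ± 0.21, adjusted p = 0.00654). C22orf42 had 545 and 563 with LC53 plus LPS, 79.2 and 96.2 with LPS and 59.5 and 78.7 at rest (log2 difference 2.67 ± 0.22, adjusted p = 0.00667). Except for EDNRB and PADI1, these calls ended without either LC53 plus LPS array (adjusted p 0.0503 to 0.193). The call of CDK5RAP2 ended without LPS replicate 1, resting replicate 1 or resting replicate 2 (adjusted p 0.0641 to 0.0843). Calls of EDNRB and PADI1 stood with any 1 array left out.

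The arms can also be set against rest. The median log2 level over resting was 1.85 with LC53 plus LPS and 6.26 with LPS for the CXCR3 ligands, 0.74 with LC53 plus LPS and 5.36 with LPS for the IL-12 family, 1.02 with LC53 plus LPS and 4.11 with LPS for the IFIT and OAS families, 2.69 with LC53 plus LPS and 4.91 with LPS for the neutrophil-attracting chemokines, 1.73 with LC53 plus LPS and 2.68 with LPS for the NF-kB feedback genes and 1.21 with LC53 plus LPS and 0.29 with LPS for the haem and iron genes of NRF2. Both values of a pair use the same resting arrays, and the LPS value shares its arrays with the differences above, so the pairs are a description with no test. For the neutrophil-attracting chemokines the middle member was CXCL3 with LC53 plus LPS and CXCL6, dim at rest, with LPS. With an offset of 50 the medians were 1.95 with LC53 plus LPS and 2.29 with LPS for the neutrophil-attracting chemokines, 1.02 and 4.93 in the same order for the CXCR3 ligands, 0.14 and 4.58 for the IL-12 family, 0.92 and 3.75 for the IFIT and OAS families, 0.99 and 1.59 for the NF-kB feedback genes, and 0.73 and 0.17 for the haem and iron genes. By the same rule 3.53% of genes differed from rest with LC53 plus LPS and 7.56% with LPS. The share higher than rest was 2.03% with LC53 plus LPS and 4.46% with LPS, and the share lower than rest was 1.51% with LC53 plus LPS and 3.10% with LPS.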

How the data were processed

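RNA of THP-1 cells was measured on 6 single-colour Cy5 arrays, 2 in each of 3 groups taken from the sample titles. The authors deposited linear intensity. All values of an array are whole multiples of 1 factor, within a tolerance of 0.02. The normalization, scanner and background correction are not given in the sources used here, and whether the groups share a common scale is unknown. The number of arrays limits the precision.

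Log2 was taken with a floor of 1 and no filter. limma 3.58.1 in R 4.3.3 fitted 1 mean per group over all 6 arrays, with a moderated 2-sided test, Benjamini-Hochberg adjustment over 31741 probes and calls below 0.05. Errors are SE of the fit. A single symbol was found for 24658 probes through the platform table and RefSeq (2177 updated), several for 1002 and none for 6081; of the 18255 genes, 5450 had several probes, and the brightest by its mean over all 6 arrays stood for the gene. Differences between saturated probes were not read.

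The comparison, the 49 gene lists and the 8 marker lists were chosen with earlier results of these data known. Named genes were the 10 highest and 10 lowest called differences of log2(value + 50), up to 3 called and 2 uncalled members per list, all members of lists of at most 12 genes and a panel of pathway genes, 270 in all; 52 further genes, and some drawn only in the figures, were chosen after their values were seen. Among the genes the text names, those further ones include KIT, CAT, DUSP1, SERPINB2, CD40, GCLM, TNFAIP3, RELB, ISG15, MX1, ICOSLG, AKR1B10, DUSP2, TRAF1, CCR2, STAT5A, SERPINB8 and SERPINA1. Promoter sequences were RefSeq, GRCh38.p14. Alternatives were quantile, median and cyclic loess scaling, an offset of 50, a mean of at least 50, the mean of all probes of a gene, the 4 arrays alone, a replicate block, and each array left out, where a lone array is assumed to vary like the other groups. The steps were tested on simulated data. Tables and figures used Python 3.11.15.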

Additional observations from a re-analysis of the deposited data

How the results depend on the processing

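The number of probes called between LC53 plus LPS and LPS was 834. It was 3755 after quantile normalization, 2416 after median centring and 3585 after cyclic loess, which moved the median of all probes by -0.09, -0.13 and -0.14 on the log2 scale. It was 2214 with an offset of 50, 1856 among the 19620 probes with a mean of at least 50, and 305 with only the LC53 plus LPS and LPS arrays. With single arrays left out it ranged from 91, without LC53 plus LPS replicate 2, to 2318, without LPS replicate 2. Deviations of same-numbered arrays from their group means correlated weakly (r = 0.20 between LC53 plus LPS and resting, -0.08 between LC53 plus LPS and LPS, 0.06 between LPS and resting). The labels do not say whether the numbers pair the samples, and 2 arrays a group cannot settle it. With the replicate number as a block, 389 probes were called, 59 higher and 330 lower, of which 380 were among the 834. Of 152 named genes that were called, 1 changed direction under any of 14 settings: ICOSLG was -0.70 with the mean of its probes (adjusted p = 0.125). In every one of them 35 were called. Of 170 named genes that were not called, 56 changed sign under at least 1 setting. The medians of the dendritic chemokine, tryptophan, sterol, glycolysis and lysosome lists changed sign with the scaling. Of called genes, 49 had both means under 50 units and 73 a lower mean under 16, where log2 differences move with the floor of 1. The cause of these changes was not tested.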
